A study of Homo sapiens with 4 samples.

Results

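The genes described here make cholesterol or sense and move it: 31 genes, chosen by name from a list of the pathway, of the 16371 genes in the deposited table. They comprise 20 enzymes of the route from acetyl-CoA to cholesterol, with its branch to isoprenoids. The others are 7 genes of the SREBP system that senses sterols and 4 genes of sterol transport and storage. The working name of the group also mentions LDL receptor genes, but no receptor is among the 31. A further 83 sterol genes, some lipoprotein receptors among them, are described more briefly at the end, and other genes of the pathway were not analysed here. All 31 had values in every library and all 31 passed the filter of a mean of at least 1 FPKM. RNA was sequenced from clusters of A549, an established human lung adenocarcinoma cell line. Every sample title also carries the letters SUS, which the titles do not spell out. Libraries labelled shMock (genotype wild type, with a control construct) were compared with libraries labelled shDUSP23 (knockdown of DUSP23, a small dual-specificity phosphatase), 2 libraries of each. The title of the study places the knockdown in the setting of resistance to chemotherapy and stem-like behaviour in non-small cell lung cancer. The labels give no hairpin sequence and no number of hairpins or clones. They do not call the 2 libraries of a group separate cultures, and every p-value here reflects only how far these libraries differ, which may be technical.

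Cholesterol is built in the endoplasmic reticulum from acetyl-CoA by way of mevalonate, isoprenoid diphosphates, squalene and lanosterol. The transcription factors SREBP1 and SREBP2 are made as membrane-bound precursors, and SCAP escorts them to the Golgi, where proteases release the active part when membrane sterol is low. INSIG proteins hold SCAP back when sterol is plentiful, and SREBP2 in particular binds promoters of the synthesis enzymes, where NF-Y and Sp1 commonly bind beside it. Dividing cells need sterol for new membranes, and lung epithelial cells of the alveolus also put cholesterol into surfactant.

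Values are FPKM, a number of sequenced fragments divided by transcript length and by library total, and were added up over the listed transcripts of a gene. Totals recovered from the steps between low values were 21272200 fragments for shMock 1, 25283600 for shMock 2, 26971000 for shDUSP23 1 and 42158700 for shDUSP23 2. All FPKM of a library added up to 540163 and 578361 under shMock but to 438604 and 446982 under shDUSP23. Sums of FPKM over groups of genes below were not rescaled for this difference. DUSP23 had 29.96 and 35.9 FPKM under shMock and 1.71 and 2.71 FPKM under shDUSP23, 14.9 times lower (log2 fold change -3.64, SE 0.22; limma, adjusted p = 3.12e-05). The libraries also differed beyond the targeted gene: all 10 proliferation markers fell, and their summed level was 644 and 629 FPKM under shMock and 149 and 138 FPKM under shDUSP23. PCNA alone held 323.6 and 331.5 FPKM of this under shMock and 60.07 and 56.08 FPKM under shDUSP23. With libraries rescaled to equal sums of FPKM, MCM2 and MCM5 were not called (limma, adjusted p = 0.0861 and 0.0985). Mitochondrial transcripts held 12.3% and 13.1% of all FPKM under shMock but 8.12% and 7.97% under shDUSP23. All 5 epithelial markers were present, with sums of 2154 and 2111 FPKM under shMock and 1634 and 1716 FPKM under shDUSP23. Of 8 alveolar type II markers 4 were listed (summed 12.5 and 10.7 against 19.9 and 17.2 FPKM) and SFTPC, SFTPB, SFTPA1 and NKX2-1 had no row. No endothelial, hepatocyte or steroidogenic marker had a row, 3 of 5 fibroblast markers summed to at most 4.90 FPKM in any library, and of 5 leukocyte markers only CD68 (24.4 and 23.5 to 94.9 and 130.9 FPKM) and CD14 (4.68 and 8.005 to 0.983 and 0.995 FPKM) were listed. The part of these differences in the sterol results was not tested.

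Most genes of cholesterol synthesis were lower in the shDUSP23 clusters, at every stage from the mevalonate pathway to the last steps of sterol modification. Of the 11 genes that sense and move sterol 2 rose and 2 fell, shares no higher than over all genes tested (23.1% higher and 22.2% lower). Of the 20 enzymes 16 fell and none rose (none in limma at an unadjusted p under 0.05 either), with FDFT1, MVK, IDI1, EBP and CYP51A1 falling most. The enzymes together held 900.4 and 903.0 FPKM under shMock and 510.0 and 461.6 FPKM under shDUSP23 (901.7 ± 1.86 against 485.8 ± 34.3 FPKM, mean ± SD, n = 2), 1.86 times lower. Part of this ratio goes with the lower sum of all FPKM under shDUSP23, for which it was not rescaled. Among the sensors, SREBF2 and INSIG1 fell while SREBF1, SCAP and INSIG2 were not called, and in transport NPC1 was called higher. The proliferation markers were lower in the same libraries, with a median log2 fold change of -1.77 against -0.75 for the enzymes. The 2 ranges overlap, since MCM2 stood at -0.79 and FDFT1 at -1.74. The part of the proliferation markers in this result was not tested. In RNA from whole clusters, fewer cells of a type and less RNA per cell cannot be told apart.

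Over all 31 genes, 18 fell and 2 rose in limma on log2(FPKM + 0.5) at a Benjamini-Hochberg adjusted p under 0.05, and 11 were not called. Many other genes differed too, since 22.2% of the 13691 genes tested fell and 23.1% rose between these libraries, 45.3% in all. The median log2 fold change (shDUSP23 minus shMock) was -0.50 over the 31 genes and -0.75 over the 20 enzymes, against 0.03 over all genes tested. The 2 shMock values lay above both shDUSP23 values in 22 of the 31 genes and below both in 3; over all genes tested these shares were 36.2% and 39.3%. Rescaling the libraries to equal sums of FPKM moved the median of all genes to 0.34, so that 12.3% of genes fell and 38.4% rose. On that scale 11 of the 31 genes fell, 10 of them enzymes, and 3 rose. After a correction for GC content and length 18 of the 31 genes fell and 2 rose, where 44.7% of all genes tested changed (22.0% lower, 22.7% higher). Not all were the same genes: INSIG2 and NPC2 rose in place of MBTPS1 and NPC1, and DHCR7 and SCAP fell in place of GGPS1 and SC5D. Without a trend in eBayes 14 of the 31 fell and 0 rose (1 higher in limma at an unadjusted p under 0.05), where 40.4% of all genes changed (19.3% lower, 21.1% higher). Leaving out shMock 1 or shMock 2 left 12 falls and 0 rises each in limma (2 and 1 higher at an unadjusted p under 0.05), with 29.4% and 25.2% of all genes changed. Leaving out shDUSP23 1 gave 18 falls and 1 rise (47.3% changed), and leaving out shDUSP23 2 gave 16 falls and 0 rises (2 higher unadjusted; 42.3% changed).

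**Figure D1:**
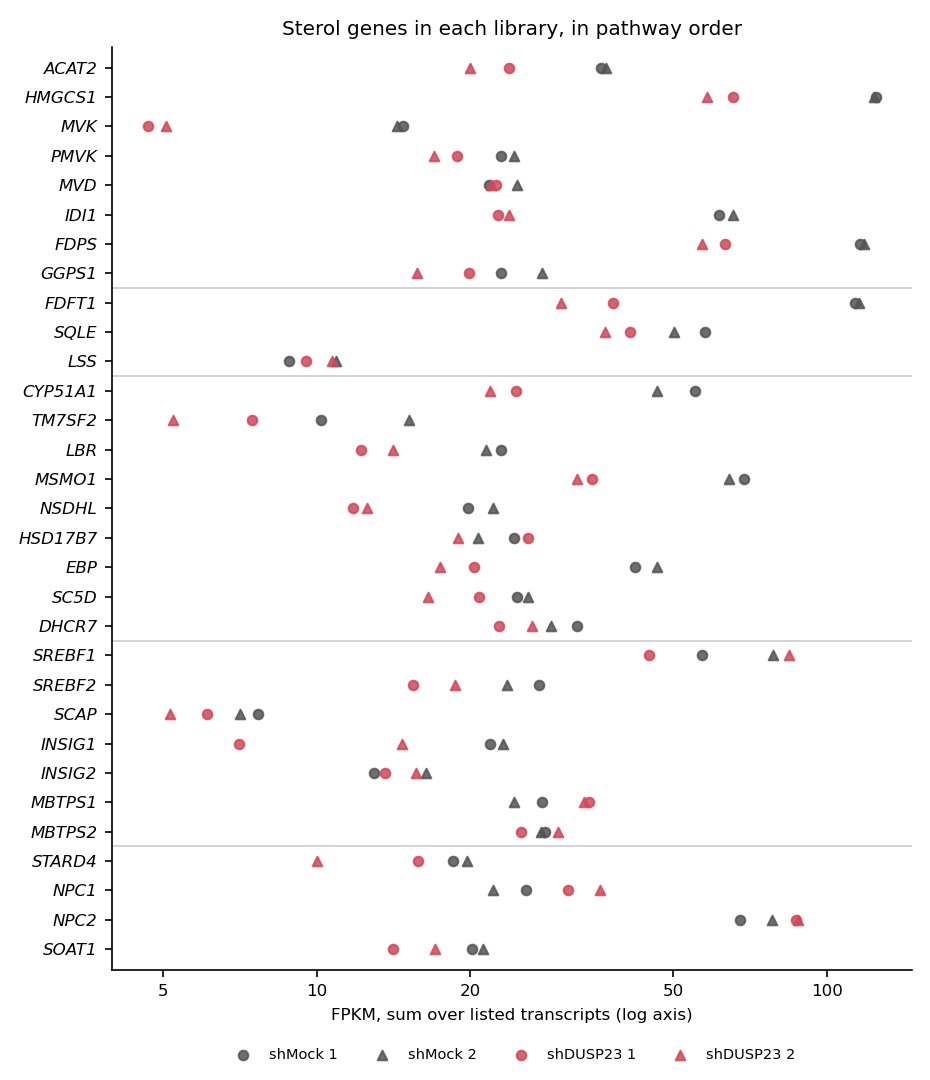
FPKM of the 31 genes on a log axis, in pathway order, with 1 point per library (grey shMock, red shDUSP23; circles replicate 1, triangles replicate 2). HMGCS1, FDPS and FDFT1 stand above 110 FPKM in both shMock libraries, and at 16 of the 20 enzymes the shDUSP23 points lie below the shMock points beyond the threshold of the test.

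**Figure D2:**
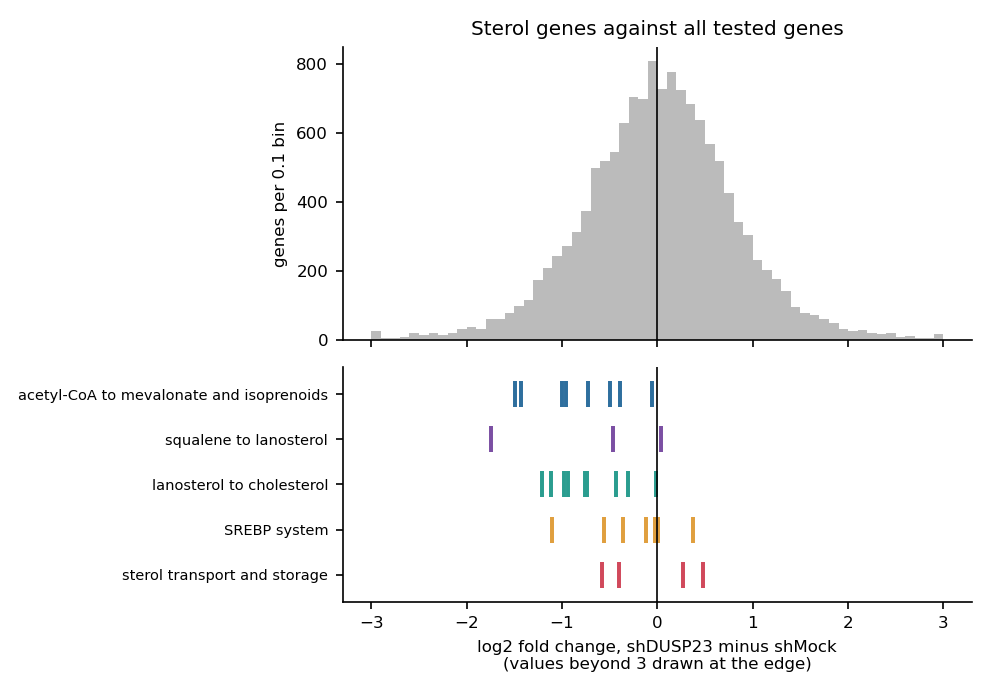
Histogram of the log2 fold changes of all 13691 genes tested (shDUSP23 minus shMock; number of genes per bin of 0.1), above the 31 genes drawn as ticks by role; values beyond 3 are drawn at the edge. The median is 0.03 for all genes and -0.50 for the 31 genes, and FDFT1 lies at the lowest end of the group, at rank 278 from the bottom of all genes.

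Promoters of the 31 genes, enzymes and others together, were searched for the letters of 4 known binding motifs. RefSeq promoter windows (GRCh38.p14, 250 bases before to 50 after the start) were at hand for 28 of the 31 genes, 37 windows in all, and not for ACAT2, FDFT1 or SQLE. The NF-Y box CCAAT, read on both strands (ATTGG on the other), was in 21 of 37 windows (56.8%), against 34.6% of all 35116 windows and 34.7% of the 14632 windows of tested genes. In 13 windows (35.1%) there were 2 or more boxes against 12.2% of windows of tested genes, and 7 (18.9%) had 3 or more against 4.39%. The Sp1 box GGGCGG (or CCGCCC) was in 83.8% against 66.2% of windows of tested genes. The E-box CACGTG was in 5 windows (13.5%) against 9.42%, and the sterol regulatory element TCACNCCAC (or GTGGNGTGA) was in 1 of 37 windows (2.7%) against 0.977%. An NF-Y box was in 12 of the 15 genes with a window that fell, in 7 of the 11 that were not called and in 0 of the 2 called higher; no count here is a test, and a match of letters is not a bound site.

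Stretches before the start that lie outside annotated exons are shown for 3 enzymes that fell with several boxes and for 2 that were not called. The 30 bases of SREBF2 around the single sterol regulatory element are shown too, and these lie within annotated exons. All are from RefSeq, GRCh38.p14, 5′ to 3′ on the strand of the gene; capitals mark the NF-Y box in either reading and, in SREBF2, the sterol regulatory element.
NSDHL, chrX:152830813-152830966, plus strand, 250 to 97 bases before the start, 4 boxes, of which the last 2 overlap: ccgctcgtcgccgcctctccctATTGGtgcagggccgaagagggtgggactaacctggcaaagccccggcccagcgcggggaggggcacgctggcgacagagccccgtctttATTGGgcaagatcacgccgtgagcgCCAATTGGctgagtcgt
MSMO1, chr4:165327419-165327618, plus strand, 250 to 51 bases before the start, 3 boxes: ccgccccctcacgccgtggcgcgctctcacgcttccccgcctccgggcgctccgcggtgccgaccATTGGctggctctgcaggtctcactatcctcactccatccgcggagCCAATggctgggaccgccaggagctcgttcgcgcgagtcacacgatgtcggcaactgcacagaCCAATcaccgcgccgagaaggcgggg
IDI1, chr10:1049171-1049369, minus strand, 250 to 52 bases before the start, 2 boxes: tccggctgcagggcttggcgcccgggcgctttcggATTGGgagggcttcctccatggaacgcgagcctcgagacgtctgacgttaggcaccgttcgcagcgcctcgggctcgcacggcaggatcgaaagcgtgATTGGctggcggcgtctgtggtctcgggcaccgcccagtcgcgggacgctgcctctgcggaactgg
DHCR7, chr11:71448444-71448643, minus strand, 250 to 51 bases before the start, 1 box: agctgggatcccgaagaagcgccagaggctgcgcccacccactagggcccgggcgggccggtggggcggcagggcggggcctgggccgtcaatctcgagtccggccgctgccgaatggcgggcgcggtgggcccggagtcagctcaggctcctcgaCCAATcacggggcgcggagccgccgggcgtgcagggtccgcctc
LSS, chr21:46228825-46229024, minus strand, 250 to 51 bases before the start, 1 box: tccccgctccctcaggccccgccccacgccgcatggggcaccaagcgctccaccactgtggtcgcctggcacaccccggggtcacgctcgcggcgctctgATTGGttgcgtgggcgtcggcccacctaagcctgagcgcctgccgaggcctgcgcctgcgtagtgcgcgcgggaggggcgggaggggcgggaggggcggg
SREBF2, chr22:41832962-41832991, plus strand, 143 to 114 bases before the start: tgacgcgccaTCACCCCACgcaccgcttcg
The stretches were chosen for the boxes they hold, so their differences are an illustration and no result. Windows not shown went both ways. MVK with 5 boxes and EBP with 3 fell, but so did PMVK, CYP51A1 and LBR with 0. MVD with 3 boxes and HSD17B7 with 2 were not called. The DHCR7 window holds a further box 48 bases before the start, outside the printed stretch. The element in SREBF2 begins 133 bases before the start.

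The first 8 enzymes act between acetyl-CoA and the isoprenoid diphosphates, and 7 of them fell and none rose (median log2 fold change -0.84). They do not cover every step, since HMG-CoA reductase is not among the 31 genes. ACAT2, the cytosolic thiolase that joins 2 acetyl-CoA (ENSG00000120437, chromosome 6, 159762045 to 159779112, plus strand, build GRCh38 as for all genes below), had 36.04 and 36.96 FPKM under shMock and 23.8 and 20.02 FPKM under shDUSP23. It fell by 0.73 on the log2 scale (SE 0.14; limma, adjusted p = 0.00345). HMGCS1, the cytosolic HMG-CoA synthase (ENSG00000112972, chromosome 5, 43287470 to 43313512, minus strand), was the most abundant of the 31 genes in shMock with 124.5 and 123.8 FPKM under shMock and 65.5 and 58.1 FPKM under shDUSP23. The groups lay far apart and the gene fell by 1.002 (SE 0.12; limma, adjusted p = 3.50e-04), 2.01 times lower. MVK, mevalonate kinase (ENSG00000110921, chromosome 12, 109573302 to 109598117, plus strand), had 14.8 and 14.4 FPKM under shMock and 4.68 and 5.07 FPKM under shDUSP23. Both shDUSP23 values lay far under both shMock values, and the means differed 2.99 times, a fall of 1.49 on the log2 scale (SE 0.17; limma, adjusted p = 3.06e-04). PMVK, the next kinase (ENSG00000163344, chromosome 1, 154924740 to 154936719, minus strand), had 22.9 and 24.3 FPKM under shMock and 18.9 and 16.99 FPKM under shDUSP23, so that the groups did not overlap but were close (log2 fold change -0.39, SE 0.14; limma, adjusted p = 0.04799). MVD, the decarboxylase that makes isopentenyl diphosphate (ENSG00000167508, chromosome 16, 88651935 to 88663148, minus strand), was the exception: its values were 21.7 and 24.7 FPKM under shMock and 22.4 and 21.9 FPKM under shDUSP23, overlapping between the groups (log2 fold change -0.06; limma, adjusted p = 0.739).

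IDI1, the isomerase that makes dimethylallyl diphosphate (ENSG00000067064, chromosome 10, 1039152 to 1049119, minus strand), had 61.4 and 65.4 FPKM under shMock and 22.7 and 23.8 FPKM under shDUSP23. It fell by 1.43 (SE 0.12; limma, adjusted p = 1.02e-04), 2.73 times lower and with a difference many times the gap between libraries of 1 group. FDPS, farnesyl diphosphate synthase (ENSG00000160752, chromosome 1, 155308748 to 155320666, plus strand), stands at the branch to sterols and prenyl groups and had 116.0 and 118.2 FPKM under shMock and 63.1 and 56.9 FPKM under shDUSP23. It fell by 0.96 (SE 0.12; limma, adjusted p = 3.99e-04). GGPS1, which makes geranylgeranyl diphosphate for protein prenylation (ENSG00000152904, chromosome 1, 235327350 to 235344532, plus strand), had 22.9 and 27.6 FPKM under shMock and 19.9 and 15.7 FPKM under shDUSP23 and fell by 0.50 (SE 0.17; limma, adjusted p = 0.0387). With equal sums the calls of ACAT2 (adjusted p = 0.0528), PMVK (0.758) and GGPS1 (0.4303) were lost, and GGPS1 also dropped out once GC content and length were corrected for (log2 fold change -0.09; limma, adjusted p = 0.642). PMVK and GGPS1 were also not called in limma without shMock 1 (adjusted p = 0.135 and 0.0662), without shMock 2 (0.226 and 0.2499) or without shDUSP23 2 (0.145 and 0.143).

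Next come the committed steps to the first sterol, where 2 of 3 enzymes fell and none rose (median log2 fold change -0.46). FDFT1, squalene synthase (ENSG00000079459, chromosome 8, 11802611 to 11839304, plus strand), joins farnesyl units into squalene and takes carbon out of the shared isoprenoid route. It read 113.6 and 115.2 FPKM under shMock and 38.1 and 30.2 FPKM under shDUSP23. The fall of 1.74 on the log2 scale (SE 0.14; limma, adjusted p = 7.34e-05) was the largest among the 31 genes, and the mean went from 114.4 ± 1.16 to 34.1 ± 5.603 FPKM (SD, n = 2), 3.35 times lower. SQLE, squalene epoxidase (ENSG00000104549, chromosome 8, 124998497 to 125022283, plus strand), a rate-limiting monooxygenase, had 57.6 and 50.2 FPKM under shMock and 41.02 and 36.7 FPKM under shDUSP23. The groups did not overlap and SQLE fell by 0.46 (SE 0.13; limma, adjusted p = 0.0203), but it was not called with equal sums (0.487), without shMock 1 (0.135) or without shDUSP23 2 (0.0731), all limma adjusted p. LSS, the cyclase that folds squalene epoxide into lanosterol (ENSG00000160285, chromosome 21, 46188141 to 46228824, minus strand), had 8.82 and 10.9 FPKM under shMock and 9.51 and 10.7 FPKM under shDUSP23. These overlap completely (log2 fold change 0.04, SE 0.18; limma, adjusted p = 0.873).

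Of the 9 enzymes that turn lanosterol into cholesterol 7 fell and none rose (median log2 fold change -0.76). CYP51A1, the lanosterol demethylase (ENSG00000001630, chromosome 7, 92112153 to 92134803, minus strand), had 55.2 and 46.3 FPKM under shMock and 24.5 and 21.9 FPKM under shDUSP23, a fall of 1.11 (SE 0.14; limma, adjusted p = 5.13e-04). TM7SF2 (ENSG00000149809, chromosome 11, 65111872 to 65116384, plus strand) and LBR (ENSG00000143815, chromosome 1, 225401502 to 225428086, minus strand) both reduce the bond left by that demethylation, and LBR also anchors the nuclear lamina. TM7SF2 had 10.2 and 15.1 FPKM under shMock and 7.46 and 5.24 FPKM under shDUSP23 and fell by 0.94 (SE 0.24; limma, adjusted p = 0.0135). LBR had 22.97 and 21.5 FPKM under shMock and 12.2 and 14.1 FPKM under shDUSP23 and fell by 0.74 (SE 0.15; limma, adjusted p = 0.00451). The TM7SF2 libraries were spread more widely within each group than those of LBR, and TM7SF2 was not called without shMock 2 (log2 fold change -0.67; limma, adjusted p = 0.1398).

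MSMO1 (ENSG00000052802, chromosome 4, 165327667 to 165343164, plus strand) and NSDHL (ENSG00000147383, chromosome X, 152830967 to 152869729, plus strand), whose promoter stretches are shown above, act one after the other in removing the methyl groups at carbon 4 of the sterol. MSMO1, the oxidase, had 68.6 and 64.2 FPKM under shMock and 34.6 and 32.3 FPKM under shDUSP23 and fell by 0.98 (SE 0.12; limma, adjusted p = 4.37e-04). NSDHL, the dehydrogenase, had 19.8 and 22.2 FPKM under shMock and 11.8 and 12.5 FPKM under shDUSP23 and fell by 0.76 (SE 0.15; limma, adjusted p = 0.00374). HSD17B7, the ketoreductase of the same complex (ENSG00000132196, chromosome 1, 162790702 to 162812817, plus strand), was not called: its values of 24.3 and 20.7 FPKM under shMock and 25.9 and 18.9 FPKM under shDUSP23 overlapped (log2 fold change -0.02, SE 0.18; limma, adjusted p = 0.945). It has a near-identical transcribed pseudogene, HSD17B7P2, so its level is less certain. EBP, the sterol isomerase that also binds emopamil (ENSG00000147155, chromosome X, 48521799 to 48528716, plus strand), had 41.99 and 46.4 FPKM under shMock and 20.3 and 17.5 FPKM under shDUSP23. It fell by 1.21 (SE 0.14; limma, adjusted p = 3.26e-04), 2.34 times lower. SC5D, the desaturase after it (ENSG00000109929, chromosome 11, 121292681 to 121313410, plus strand), had 24.7 and 25.9 FPKM under shMock and 20.8 and 16.5 FPKM under shDUSP23, a fall of 0.44 (SE 0.15; limma, adjusted p = 0.0458).

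DHCR7, the reductase that turns 7-dehydrocholesterol into cholesterol (ENSG00000172893, chromosome 11, 71434411 to 71448393, minus strand), had 32.3 and 28.8 FPKM under shMock and 22.8 and 26.4 FPKM under shDUSP23. The groups did not overlap, but the difference did not pass the threshold (log2 fold change -0.31, SE 0.14; limma, adjusted p = 0.103). It did pass, as a fall, in protein-coding transcripts alone (log2 fold change -0.47; limma, adjusted p = 0.0258) and with GC content and length corrected (-0.56; 0.00774). Its main coding transcript, DHCR7-201, had 29.6 and 26.2 FPKM under shMock and 16.2 and 16.03 FPKM under shDUSP23. With equal sums LBR (limma, adjusted p = 0.0635) and SC5D (0.606) were not called, and DHCR7 stood at a log2 fold change of 0.02. SC5D was also not called after the GC and length correction (log2 fold change -0.04; limma, adjusted p = 0.835), nor without shMock 1 (0.138), shMock 2 (0.205) or shDUSP23 2 (0.194).

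The levels were also summed over each stage, without rescaling for the lower sum of all FPKM under shDUSP23. The 8 enzymes up to isoprenoids summed to 420.3 and 435.4 FPKM under shMock and 240.9 and 218.6 FPKM under shDUSP23, 1.86 times lower. The 3 enzymes from squalene to lanosterol summed to 180.0 and 176.4 FPKM under shMock and 88.6 and 77.6 FPKM under shDUSP23, 2.14 times lower, and FDFT1 made up most of that difference. The 9 later enzymes summed to 300.1 and 291.3 FPKM under shMock and 180.5 and 165.4 FPKM under shDUSP23, 1.71 times lower. Without FDFT1, HMGCS1 and FDPS, the most abundant enzymes, the remaining 17 summed to 546.4 and 545.9 FPKM under shMock and 343.3 and 316.4 FPKM under shDUSP23, 1.66 times lower, so that the sum was lower without these 3 genes too. The 3 stages were not tested against each other. HMGCS1, IDI1, FDFT1, CYP51A1 and EBP kept their call and direction in all 18 alternatives, and MVK, FDPS, MSMO1 and NSDHL lost it only with single transcripts as features.

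**Figure D3:**
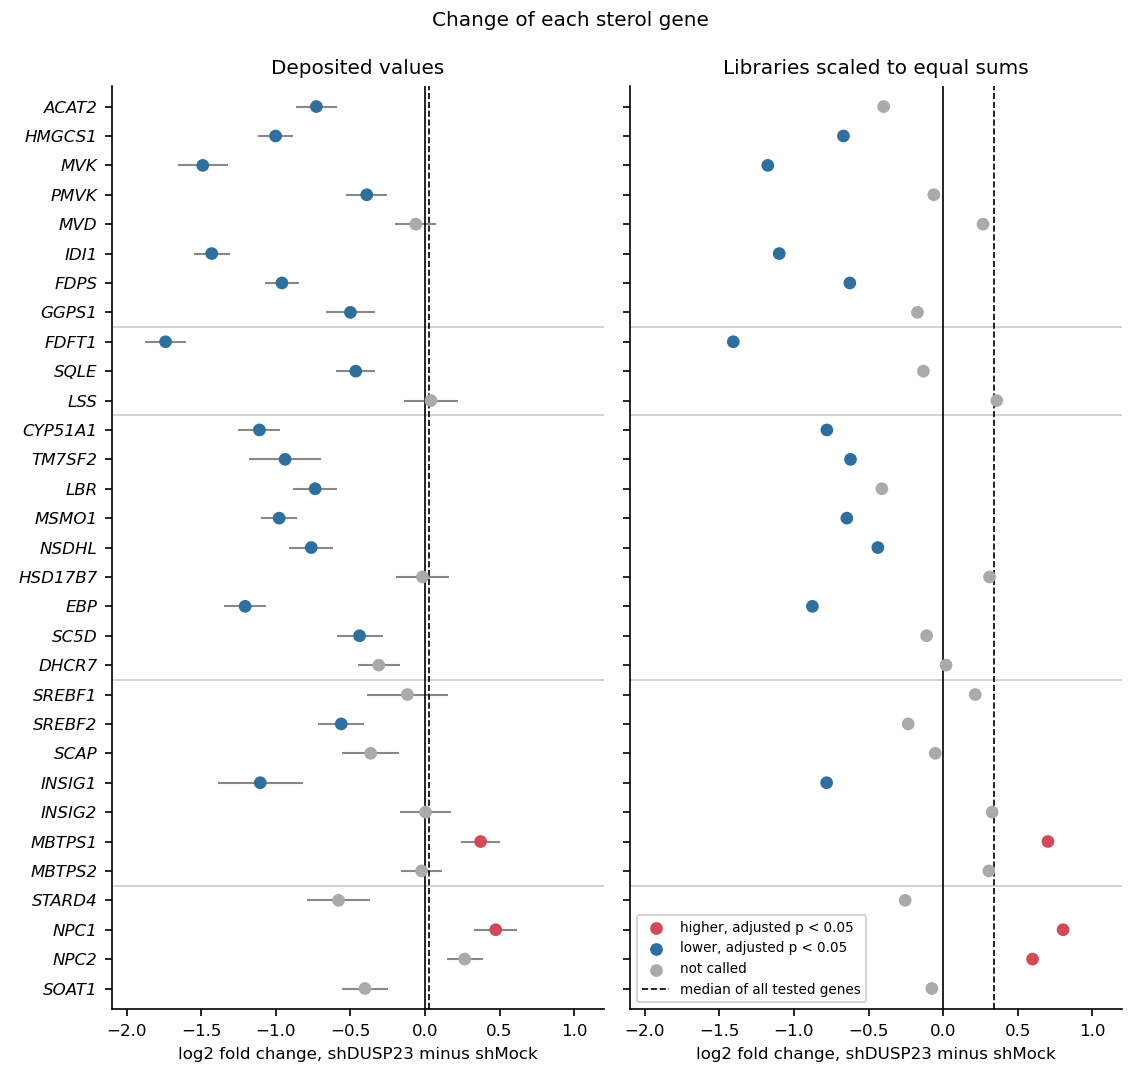
Log2 fold change (shDUSP23 minus shMock) of the 31 genes in pathway order, without rescaling (left, with bars for limma's standard error) and with equal sums of FPKM (right); blue points fell, red rose, grey were not called, and the dashed line is the median of all genes tested. FDFT1, at -1.74, lies farthest below 0 and NPC1, at 0.47, farthest above among the values without rescaling.

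The SREBP system, 7 genes that control the enzymes, had 2 falls, 1 rise and 4 genes not called (median log2 fold change -0.12), so that 3 of 7 were called where 45.3% of all genes tested were. SREBF2, which encodes SREBP2 (ENSG00000198911, chromosome 22, 41833105 to 41907306, plus strand), had 27.2 and 23.6 FPKM under shMock and 15.5 and 18.7 FPKM under shDUSP23. It fell by 0.56 (SE 0.16; limma, adjusted p = 0.0186), with no overlap between the groups. SREBF1, which encodes SREBP1 (ENSG00000072310, chromosome 17, 17811356 to 17837011, minus strand), had 56.9 and 78.3 FPKM under shMock and 44.8 and 84.3 FPKM under shDUSP23. The shDUSP23 libraries held both the lowest and the highest value, and the gene was not called (log2 fold change -0.12, SE 0.27; limma, adjusted p = 0.745). Protein-coding transcripts held 47.4% and 39.9% of the SREBF1 sum under shMock and 59.7% and 47.5% under shDUSP23, the rest being mostly retained-intron transcripts. SCAP, the escort protein (ENSG00000114650, chromosome 3, 47413681 to 47475955, minus strand), had 7.66 and 7.09 FPKM under shMock and 6.11 and 5.16 FPKM under shDUSP23 (log2 fold change -0.36, SE 0.19; limma, adjusted p = 0.151), and it passed as a fall only after GC and length correction, with or without the replicate block (without: -0.83; 0.0103).

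INSIG1, the retention protein whose gene is itself induced by SREBP (ENSG00000186480, chromosome 7, 155297776 to 155310235, plus strand), had 21.9 and 23.2 FPKM under shMock and 7.05 and 14.7 FPKM under shDUSP23. Both shDUSP23 values were below both shMock values but differed from each other by a factor of 2 or more, and the fall was 1.10 (SE 0.28; limma, adjusted p = 0.0136). INSIG2, its relative (ENSG00000125629, chromosome 2, 118088471 to 118110997, plus strand), had 12.9 and 16.4 FPKM under shMock and 13.6 and 15.6 FPKM under shDUSP23, overlapping throughout (log2 fold change 0.00, SE 0.17; limma, adjusted p = 0.987). It was called higher after the GC and length correction (0.50; limma, adjusted p = 0.0422). MBTPS1 encodes the first Golgi protease of SREBP (ENSG00000140943, chromosome 16, 84053761 to 84116942, minus strand) and had 27.6 and 24.4 FPKM under shMock and 34.1 and 33.4 FPKM under shDUSP23. It rose by 0.37 (SE 0.13; limma, adjusted p = 0.0462), close to the threshold, and the call was lost in 11 of the 18 alternatives. MBTPS2, the second protease (ENSG00000012174, chromosome X, 21839617 to 21885423, plus strand), had 28.02 and 27.5 FPKM under shMock and 25.2 and 29.7 FPKM under shDUSP23, overlapping (log2 fold change -0.02; limma, adjusted p = 0.905).

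Several of these calls were lost or moved without 1 library. SREBF2 was not called in limma without shMock 1 (adjusted p = 0.139), shMock 2 (0.0526) or shDUSP23 1 (0.0563), nor with equal sums (0.281), while its fold change stayed below 0. INSIG1 was not called without shMock 1 (0.0692) or shMock 2 (0.0828), and its log2 fold change was -0.60 without shDUSP23 1 and -1.61 without shDUSP23 2. MBTPS1 was not called without shMock 1 (0.0798), shMock 2 (0.249), shDUSP23 1 (0.0958) or shDUSP23 2 (0.0777). SREBF1 changed sign: its log2 fold change was -0.57 without shDUSP23 2 and 0.33 without shDUSP23 1.

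The 4 genes of sterol transport and storage gave 1 rise and no fall in limma, where 23.1% of all genes tested rose and 22.2% fell. The median log2 fold change of the 4 was -0.07, and 1 was higher and 2 lower in limma at an unadjusted p under 0.05. NPC1, the lysosomal membrane protein that passes cholesterol out of the lysosome (ENSG00000141458, chromosome 18, 23506184 to 23586506, minus strand), had 25.7 and 22.2 FPKM under shMock and 31.1 and 35.9 FPKM under shDUSP23. It rose by 0.47 (SE 0.14; limma, adjusted p = 0.0267). NPC2, the soluble lysosomal protein that hands cholesterol to NPC1 (ENSG00000119655, chromosome 14, 74479940 to 74493608, minus strand), had 67.6 and 77.8 FPKM under shMock and 86.9 and 87.8 FPKM under shDUSP23, with both shDUSP23 libraries higher (log2 fold change 0.27, SE 0.12; limma, adjusted p = 0.103). It passed as a rise with equal sums (0.60; limma, adjusted p = 0.00251), after quantile normalization (0.0254) and after GC and length correction (0.0234). CD68, a marker of lysosomes as well as of macrophages, was also higher in both shDUSP23 libraries, as given above, and its part in the NPC1 and NPC2 values was not tested. The NPC1 call was lost without shMock 1 (limma, adjusted p = 0.0527), shMock 2 (0.175) or shDUSP23 2 (0.0959), and after GC and length correction (0.0994).

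STARD4, a soluble sterol carrier whose gene responds to SREBP2 (ENSG00000164211, chromosome 5, 111496033 to 111512590, minus strand), had 18.5 and 19.8 FPKM under shMock and 15.8 and 10.04 FPKM under shDUSP23. The groups did not overlap and the fold change of -0.58 (SE 0.21; limma, adjusted p = 0.0513) lay just outside the threshold. It was called lower in 7 alternatives, among them without shDUSP23 1 (-0.90; limma, adjusted p = 0.00134), while without shDUSP23 2 its log2 fold change was -0.26 and it was not called. SOAT1, which esterifies cholesterol for storage in droplets (ENSG00000057252, chromosome 1, 179293714 to 179358680, plus strand), had 20.2 and 21.1 FPKM under shMock and 14.1 and 17.1 FPKM under shDUSP23 (log2 fold change -0.40, SE 0.15; limma, adjusted p = 0.0592), and it passed as a fall without shDUSP23 2 (-0.54; 0.0243). Together the 4 genes summed to 132.0 and 140.9 FPKM under shMock and 147.9 and 150.8 FPKM under shDUSP23, and the 7 genes of the SREBP system to 182.3 and 200.4 FPKM under shMock and 146.3 and 201.5 FPKM under shDUSP23. The transport sum was slightly higher in shDUSP23, whereas the SREBP sums overlapped; SREBF1 held the largest share of the latter.

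The table lists transcripts, and 163 of them belong to the 31 genes. With transcripts as features 112 were tested and 8 were called lower and none higher by limma (35 lower and 3 higher at an unadjusted p under 0.05), where 4.15% of all tested transcripts changed (2.45% lower, 1.7% higher). The 8 were of enzymes: HMGCS1-202, HMGCS1-204, IDI1-201, FDPS-203, FDPS-215, FDFT1-201, CYP51A1-201 and EBP-205. FDFT1-201, the main transcript of squalene synthase, had 57.4 and 54.7 FPKM under shMock and 13.9 and 12.8 FPKM under shDUSP23 and fell by 2.03 (limma on transcripts, adjusted p = 0.0285). A second coding transcript, FDFT1-209, had 36.1 and 24.8 FPKM under shMock and 12.97 and 0 FPKM under shDUSP23, where the last library is listed at 0. IDI1-201 had 40.6 and 45.9 FPKM under shMock and 17.5 and 15.6 FPKM under shDUSP23, and HMGCS1-202 had 91.96 and 91.1 FPKM under shMock and 51.6 and 45.1 FPKM under shDUSP23. In 23 of the 31 genes the most abundant transcript had a log2 fold change below 0, where 50.4% of all tested transcripts did. Not every fall of a gene sum was matched there. GGPS1-203 stood at -0.05 and SQLE-201 at -0.32, and neither was called (limma on transcripts, adjusted p = 0.931 and 0.219). Splitting a gene among transcripts depends on the authors' quantifier, which is not given in the sources used here.

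**Figure D4:**
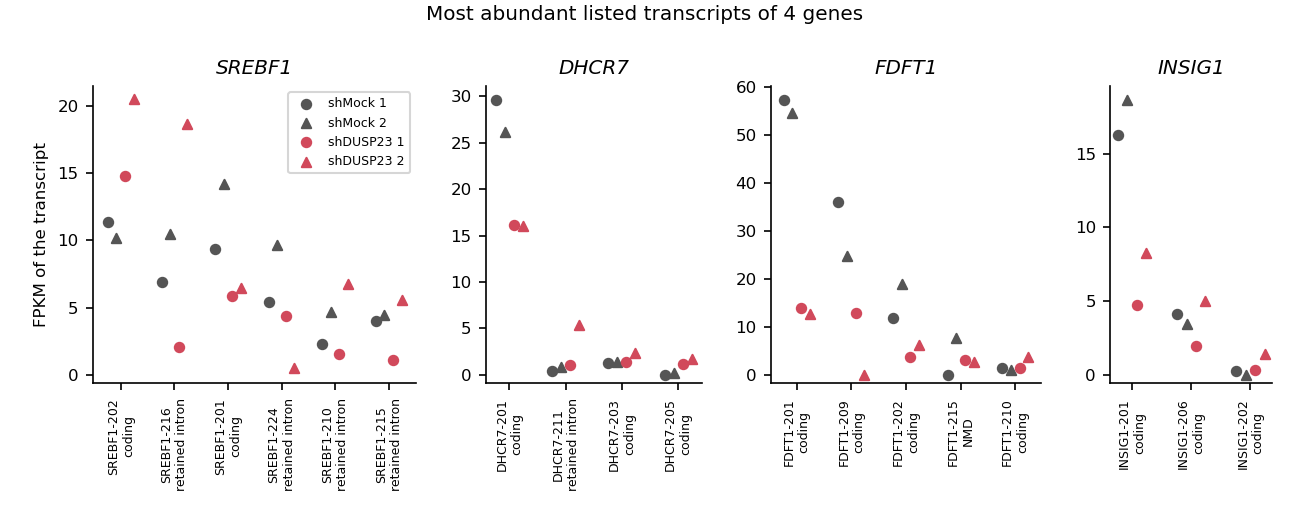
FPKM (vertical axes) of the most abundant listed transcripts of SREBF1, DHCR7, FDFT1 and INSIG1, 1 point per library. FDFT1-201 has 57.4 and 54.7 FPKM under shMock and 13.9 and 12.8 FPKM under shDUSP23, while SREBF1-202 is higher and SREBF1-201 lower in both shDUSP23 libraries than in either shMock library.

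Some loci share sequence with a neighbour, and since the strandedness of the libraries is not given in the sources used here their values are less certain. MVK overlaps MMAB on the opposite strand by 279 bases, and MMAB, a cobalamin enzyme gene, had 17.2 and 25.7 FPKM under shMock and 9.47 and 9.59 FPKM under shDUSP23. ACAT2 overlaps TCP1 on the opposite strand by 615 bases, and TCP1, a chaperonin subunit gene, had 91.2 and 91.3 FPKM under shMock and 63.6 and 70.3 FPKM under shDUSP23. NPC1 overlaps RMC1 by 25639 bases, which had 8.58 and 7.55 FPKM under shMock and 10.6 and 10.8 FPKM under shDUSP23, and GGPS1 overlaps TBCE, a tubulin cofactor gene, by 15960 bases on the same strand, which had 10.4 and 5.62 FPKM under shMock and 2.601 and 3.26 FPKM under shDUSP23. These 4 pairs were picked after their values were seen, so the shared direction of partner and member in them is no result. Other overlapping neighbours are not shown. One is ARID4B at GGPS1, with 18.03 and 12.9 FPKM under shMock and 15.6 and 10.95 FPKM under shDUSP23, overlapping between the groups.

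Around the members, 83 genes in 7 further lists of sterol biology were followed, of which 80 had rows and 76 were tested. Together 23 rose and 29 fell, and their median log2 fold change was 0.02. Over all genes tested 23.1% rose and 22.2% fell, shares that also stand against the counts of each list below. With equal sums 33 of the list genes rose and 21 fell, where 38.4% of all genes tested rose and 12.3% fell. Falls and rises were thus similar in number without rescaling, unlike among the enzymes, although this difference was not tested.

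Regulators of SREBP retention and degradation gave 2 rises and 5 falls among 12 (median log2 fold change -0.07). HSP90B1, an endoplasmic reticulum chaperone, went from 428.9 and 461.1 to 143.5 and 152.5 FPKM (log2 fold change -1.58; limma, adjusted p = 4.74e-05). RNF145, a sterol-responsive ubiquitin ligase, went from 91.6 and 82.5 to 39.9 and 36.1 FPKM, ERLIN1, a membrane scaffold of the degradation machinery, from 27.04 and 25.6 to 10.3 and 10.6 FPKM, and UBXN8 from 16.5 and 18.2 to 8.08 and 10.04 FPKM. All 4 genes named here fell, and UBXN8 was not called after GC and length correction (log2 fold change -0.47; limma, adjusted p = 0.0598). Among 14 genes that use isoprenoids for prenylation, dolichol or ubiquinone 7 fell and 3 rose (median -0.43). RABGGTB, a subunit of the Rab prenyl transferase, went from 66.5 and 68.6 to 28.3 and 21.6 FPKM, PDSS1, which makes the ubiquinone tail, from 8.85 and 11.1 to 2.59 and 1.46 FPKM, COQ2, which attaches it, from 14.8 and 16.5 to 5.69 and 6.704 FPKM, and ZMPSTE24, a protease of prenylated lamin, from 38.9 and 39.4 to 23.1 and 24.6 FPKM. These 4 were all lower, with log2 fold changes between -2.08 (PDSS1; limma, adjusted p = 5.56e-04) and -0.70 (ZMPSTE24; 0.00249).

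Genes of LXR, the oxysterol receptor, and of cholesterol efflux gave 3 rises and 2 falls among 9 (median log2 fold change 0.21). ABCG1, an efflux pump, rose from 4.97 and 8.37 to 16.7 and 17.4 FPKM (log2 fold change 1.33; limma, adjusted p = 0.00222), and RXRA, the partner receptor, from 7.15 and 7.18 to 11.5 and 12.9 FPKM. NR1H2, which encodes LXR beta, fell from 36.7 and 40.3 to 21.7 and 26.8 FPKM. LPCAT3, a phospholipid remodelling enzyme, fell from 23.96 and 27.8 to 14.6 and 18.4 FPKM. With equal sums neither was called and 5 of the 9 genes rose. On that scale 38.4% of all genes tested rose, and the median of all genes was 0.34. Lipoprotein receptors and their partners gave 2 rises and 2 falls among 9, about the shares over all genes tested (23.1% higher and 22.2% lower). The median of these 9 was 0.30, but 0.01 after GC and length correction and 0.02 with protein-coding transcripts only. LRP10 went from 43.5 and 42.6 to 69.2 and 82.7 FPKM and LRP1 from 7.62 and 7.56 to 10.4 and 12.8 FPKM, both higher, while LRP8 went from 18.1 and 16.9 to 9.498 and 8.11 FPKM and LRP12 from 29.7 and 30.3 to 17.7 and 14.3 FPKM, both lower. LRP1 lost its call after GC and length correction (limma, adjusted p = 0.911), without shMock 1 (0.117), shMock 2 (0.132) or shDUSP23 2 (0.105). RXRA lost it without shMock 1 (0.05498) or shMock 2 (0.0582), and NR1H2 and LPCAT3 without shMock 2 (0.0641 and 0.112).

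In lysosomal and membrane sterol transport 7 of 17 tested genes rose and 5 fell (median log2 fold change 0.28). LAMP1, an abundant lysosomal membrane protein, rose from 32.7 and 26.5 to 54.2 and 59.5 FPKM (log2 fold change 0.94; limma, adjusted p = 0.00117). SCP2, a peroxisomal sterol carrier, fell from 54.99 and 66.1 to 25.4 and 24.7 FPKM, TMEM97, the sigma-2 receptor that binds NPC1, from 31.2 and 27.8 to 12.6 and 9.56 FPKM, and GRAMD1B, a carrier at contacts with the plasma membrane, from 45.95 and 47.03 to 28.8 and 27.6 FPKM. Enzymes of oxysterols and sterol esters were few, with 4 of 9 tested, 3 higher and 1 lower. CH25H, which makes 25-hydroxycholesterol, an inhibitor of SREBP processing, rose from 13.1 and 12.3 to 39.1 and 38.2 FPKM (log2 fold change 1.57; limma, adjusted p = 9.86e-05). HSD3B7, a bile acid enzyme, rose from 20.9 and 21.1 to 36.6 and 36.02 FPKM, and NCEH1, a sterol ester hydrolase, from 20.3 and 19.3 to 24.99 and 28.5 FPKM; SULT2B1, a cholesterol sulfotransferase, fell from 14.6 and 14.9 to 3.53 and 6.37 FPKM. NCEH1 was not called without shMock 1 (limma, adjusted p = 0.112), shMock 2 (0.174) or shDUSP23 2 (0.135).

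Fatty acid enzymes under SREBP control fell in 7 of 11 tested cases and rose in 3 (median log2 fold change -0.70). FADS2 and FADS1, the desaturases of polyunsaturated fatty acids, went from 147.8 and 169.9 to 61.7 and 73.5 FPKM and from 138.2 and 136.3 to 65.3 and 88.3 FPKM, and FABP5, a fatty acid carrier, from 68.2 and 67.9 to 21.8 and 17.2 FPKM (log2 fold change -1.79; limma, adjusted p = 7.83e-05); all 3 fell. LPIN1, a phosphatidate phosphatase, rose from 9.66 and 10.2 to 18.4 and 22.1 FPKM.

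**Figure D5:**
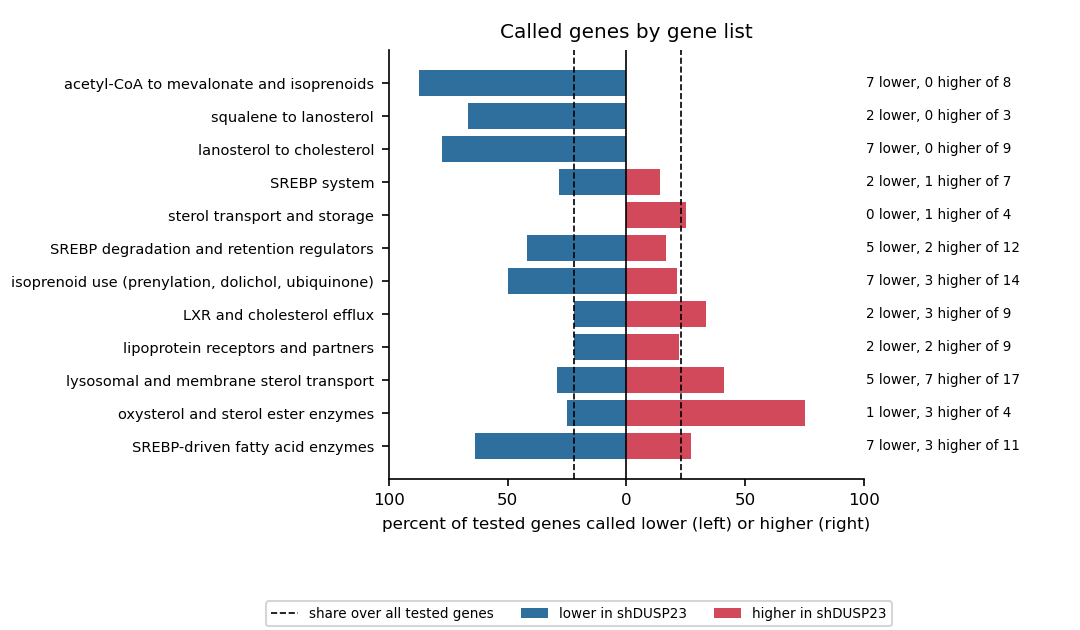
Percent of tested genes called lower (blue, left) or higher (red, right) in each role of the 31 genes and in each of the 7 surrounding lists, with the counts at the right; dashed lines mark the shares over all genes tested, 22.2% lower and 23.1% higher. The 3 enzyme stages have no gene called higher, with 7 of 8, 2 of 3 and 7 of 9 lower, and in the other lists with calls in both directions the bars extend to either side.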

How the data were processed

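Libraries made with an mRNA kit from A549 clusters were sequenced (2 shMock, 2 shDUSP23). The authors deposited FPKM per Ensembl transcript, with no counts; STAR 2.7.1a, DESeq2 1.32.0 and GRCh38 are named in the submitters' processing notes, while quantifier, annotation and strandedness are not stated in the sources used here. FPKM of the 56389 transcripts were summed over each gene ID. Fragment totals came from the steps between values of 2312 genes with 1 transcript: 91.1% to 93.4% of values up to 50 fragments were whole within 0.1 fragment. The totals set the precision of low values, and the fewest fragments behind a value of the 31 genes were 214, for MVK in shDUSP23 1.

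Only genes whose mean was 1 FPKM or more were tested, with limma 3.58.1 (R 4.3.3) on log2(FPKM + 0.5), eBayes with trend, no covariates, two-sided, with Benjamini-Hochberg adjustment over 13691 genes and a threshold of 0.05. Fold changes are on this scale and understate low genes. The procedure was tested on simulated data. Lengths and GC content came from GENCODE 29 (93.6% of transcripts). Alternatives, 18 in all, were pseudocounts of 0.1 and 1, no filter, a mean of at least 5 FPKM, equal sums, median-ratio size factors, quantile normalization, eBayes without trend and robust, the replicate number as a block, protein-coding transcripts, transcripts as features, a GC and length correction (spline, 5 degrees of freedom) with and without the block, and leaving out each library. The 31 genes and the 7 surrounding lists were chosen with earlier results of these data known. Named are DUSP23, all 31 genes and, of each surrounding list, the 4 with the smallest p; neighbouring genes and single transcripts were named after their values were seen. Tables and figures were made with matplotlib 3.10.9, pandas 2.3.3 and numpy 2.4.6 in Python 3.11.15.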

Additional observations from a re-analysis of the deposited data

How the results depend on the processing

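The 16 enzymes that fell kept log2 fold changes below 0 in all 18 alternatives, while counts of calls depended on the scaling, on the features and on single libraries. With transcripts as features (value: the most abundant transcript of a gene) 1554 features changed, 636 higher and 918 lower, of the 31 genes 5 fell and 0 rose, and of the surrounding lists 1 rose and 11 fell. With equal sums 5279 genes were higher and 1693 lower, which put 75.7% of the changed genes on the higher side against 51.0%, 11 of the 31 genes fell, and their median was -0.17. The number of the 31 genes called higher was 1 with no filter, with median-ratio size factors and with protein-coding transcripts only, and 0 without trend, where 14 fell. Leaving out 1 library gave 3464 to 6442 changed genes (1727 to 3234 higher, 1737 to 3208 lower; 4038 changed and 1923 lower without shMock 1, 3464 without shMock 2), 12 to 18 of the 31 lower (12 without shMock 1 and 12 without shMock 2), 0 to 1 higher (1 without shDUSP23 1), a median of -0.60 to -0.47, and 11 to 23 of the surrounding genes higher. Among uncalled genes the sign changed as follows; the cause was not tested. With equal sums it was 0.27 for MVD, 0.31 for HSD17B7, 0.020 for DHCR7, 0.22 for SREBF1 and 0.31 for MBTPS2. With median-ratio factors LSS was -0.020 and INSIG2 -0.057, and with quantile normalization LSS was -0.0061 and INSIG2 -0.0029. With coding transcripts MVD was 0.080, LSS -0.017 and SREBF1 0.17; with transcripts as features MVD was 0.18, SREBF1 0.67 and SCAP 1.80. After GC and length correction, with and without the replicate block, LSS was -0.37, HSD17B7 0.30 and MBTPS2 0.15. Leaving out 1 library at a time, the ranges that crossed 0 were -0.15 to 0.029 for MVD, -0.11 to 0.19 for LSS, -0.24 to 0.21 for HSD17B7, -0.57 to 0.33 for SREBF1, -0.16 to 0.17 for INSIG2 and -0.14 to 0.094 for MBTPS2.

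The labels number the libraries of both groups 1 and 2 but do not say what a number shares, and deviations of same-numbered libraries correlated at 0.05 over 13691 genes. With the replicate number as a block 6707 genes changed, and 20 of the 31 genes fell (STARD4 and SOAT1 being added) and 2 rose.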

Other observations

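Some values around the 31 genes were picked after they were seen and are given without a test of any explanation. HSD17B7P2, a transcribed pseudogene copy of HSD17B7, had 12.97 and 11.6 FPKM under shMock and 25.8 and 24.7 FPKM under shDUSP23 and rose (log2 fold change 1.01, SE 0.14; limma, adjusted p = 8.66e-04), whereas HSD17B7 itself was not called; how reads were divided between the near-identical copies is not given in the sources used here. At SREBF1 the listed transcripts went opposite ways. SREBF1-205 had 0.6803 and 0.167 FPKM under shMock and 4.02 and 7.09 FPKM under shDUSP23, and SREBF1-202 had 11.4 and 10.1 FPKM under shMock and 14.8 and 20.5 FPKM under shDUSP23, both higher in shDUSP23. SREBF1-201 had 9.33 and 14.2 FPKM under shMock and 5.87 and 6.47 FPKM under shDUSP23, lower in both. The retained-intron transcript SREBF1-216 had 6.87 and 10.4 FPKM under shMock and 2.07 and 18.7 FPKM under shDUSP23, so that the library shDUSP23 2 alone held the highest value and shDUSP23 1 the lowest. None of these SREBF1 transcripts passed limma on transcripts (adjusted p = 0.0679, 0.159, 0.147 and 0.851 in that order). SCAP-201 had 2.91 and 5.63 FPKM under shMock and 0 and 0 FPKM under shDUSP23 and SCAP-216 had 2.91 and 0 FPKM under shMock and 5.04 and 3.24 FPKM under shDUSP23; SCAP-201 was thus listed at 0 in both shDUSP23 libraries and SCAP-216 in shMock 2, and neither transcript was called (limma on transcripts, adjusted p = 0.0617 and 0.334).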
